A study of Mus musculus with 4 samples.

Results

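The genes described here encode the translation initiation factors of the mouse. They were all protein-coding genes whose symbol begins with Eif, without the Eif2ak kinases and Eif4enif1, which gave 51 of the 21900 protein-coding genes in the gene table. Their DHX9 peaks were those of the deposited list whose midpoint lay in the gene body, 496 of 59563 peaks. The list came from FLASH, a CLIP-seq method in which protein is crosslinked to RNA by ultraviolet light, pulled down with an antibody, and the attached RNA fragments are sequenced. The series set 2 pulldowns of DHX9, an RNA helicase, with a rabbit antibody beside 2 pulldowns with rabbit IgG, as replicates A and B of each. All 4 samples came from WT26, a feeder-independent male embryonic stem (ES) cell line of C57BL/6x129sV background, with no mutation or drug treatment named in the labels and LIF in the medium.

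The authors deposited a single list for the series, which gives the bounds and the strand of every peak and leaves its score blank, so the sequencing depth, the height of a peak and the spread between pulldowns are unknown. How the IgG pulldowns entered the authors' peak calling is not stated, so the level of a peak over IgG is unknown. No error between replicates can therefore be given, and genes are not replicates of a condition, so the comparisons below are descriptions without a test. Each interval given with a share is the 95% Wilson interval, for counting error alone. For a share of 0, a rougher and wider upper limit is given, with the Wilson limit beside it. The ES cell label was set beside marker genes, though a peak is not a measure of expression. Of 8 ES cell markers, 7 held a peak (Pou5f1, Nanog, Sox2, Esrrb, Tdh, Zfp42 and Lin28a, but not Dppa5a). None of 6 fibroblast markers did (Col1a1, Col1a2, Col3a1, Thy1, Acta2 and S100a4), and 0 of 6 allows a share of up to 50% (Wilson limit 39.0%). Of all protein-coding genes, 22.8% held a peak, so the lack of a peak in 6 genes says little.

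Initiation factors bring the small ribosomal subunit, the initiator tRNA and the mRNA together. The eIF2 complex carries the initiator tRNA, and eIF2B reloads eIF2 with GTP. The large eIF3 complex binds the small subunit. The eIF4 factors recognise the cap of the mRNA and unwind the leader, and the 4E-binding proteins hold the cap-binding protein in check. Many growth and stress signals act on protein synthesis through eIF2 and the 4E-binding proteins.

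Most initiation factor genes held DHX9 peaks. Of the 51 genes, 37 (72.5%, interval 59.0 to 82.9%) held at least 1 peak, whereas 22.8% of all protein-coding genes did. At least 3 peaks were found in 33 of them (64.7%), against 14.8% of all protein-coding genes. With peaks in no other gene alone, the count was again 37, against 21.4%. Expression was not measured in this list, so the abundance of these RNAs and binding by DHX9 cannot be told apart. By family, the share lay between 60% and 78.6%, with intervals that overlapped. The 11 genes with Eif2 symbols gave 8 with a peak (72.7%), the 14 Eif3 genes gave 11 (78.6%), the 16 Eif4 genes gave 12 (75%) and the remaining 10 genes gave 6 (60%).

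Members without a peak were mostly short, 8 of 14 being under 5 kb. All 8 members of that length had no peak, which allows a share of up to 37.5% (Wilson limit 32.4%), and 5.06% of other protein-coding genes of that length had any. From 5 to 10 kb, 8 of 10 members had a peak, against 14.2% of other genes, and from 10 to 20 kb 10 of 13 did, against 24.7%. All 15 members of 20 to 50 kb held peaks, and 32.6% of the other genes of that length did. Had each member taken the share of its length class, 11.7 of the 51 would have held a peak. The short genes without a peak were Eif1, Eif1b, Eif1ad, Eif3g, Eif3j2, Eif4a3l1, Eif4e1b and Eif4ebp3. The longer ones were Eif2b1, Eif2b2, Eif2b5, Eif3m, Eif4e3 and Eif5a2.

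**Figure D1:**
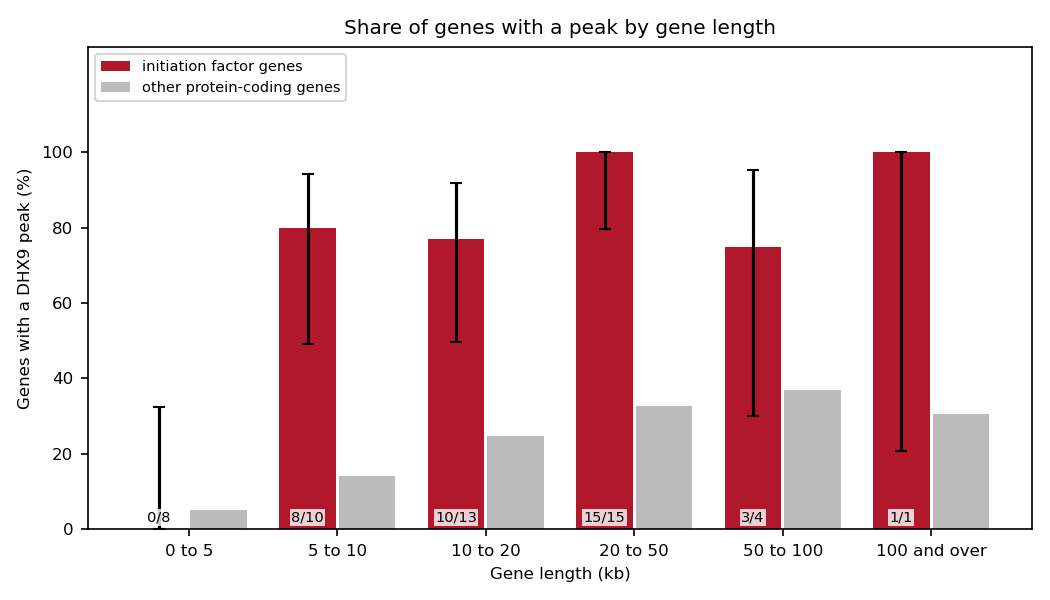
Share of genes with a DHX9 peak (vertical axis, percent) in 6 classes of gene length (horizontal axis, kb), for initiation factor genes (red, with the number of genes and 95% Wilson interval) and other protein-coding genes (grey). No member under 5 kb held a peak, and all 15 members of 20 to 50 kb did, against 32.6% of other genes of that length.

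The 4 genes for the eIF2 complex all held peaks (interval 51.0 to 100%), and 2 of the 5 for eIF2B did (40%, interval 11.8 to 76.9%). These intervals overlap, and 22.8% of all protein-coding genes held a peak. Eif2s1, the alpha subunit that stress kinases phosphorylate, held 10 peaks over 24.9 kb of chromosome 12 (78862072 to 78887010). Eif2s2, the beta subunit, held 12 over 21.5 kb of chromosome 2. The gamma subunit, which binds GTP and the tRNA, is encoded by an X-linked and a Y-linked copy. Eif2s3x on chromosome X held 19 peaks (0.79 per kb), in stretches at 7.74 to 31.9% and 65 to 87.4% of the body. Eif2s3y on chromosome Y held 2 over 38.6 kb, at 98.7 and 99.3% of the body, the nearer one 0.272 kb from the end. How reads shared between the copies were placed is not stated, so a difference between them is uncertain. Of the 5 eIF2B genes, Eif2b3 held 9 peaks and Eif2b4 held 4, while Eif2b1, Eif2b2 and Eif2b5 held none. Eif2b3 is 67.5 kb long and Eif2b4 5.58 kb, and the unbound genes are 5 to 20 kb long. A link to gene length was not tested.

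The other genes with an Eif2 symbol are not subunits of eIF2. Eif2a, whose product can bring initiator tRNA to the ribosome by another route, held 34 peaks over 31.7 kb of chromosome 3 (58525821 to 58557501), the most in the Eif2 group, and 1.07 per kb. Its first peak lay 5.56 kb from the start, and a stretch of 4.60 kb without peaks parted 2 runs. Eif2d, which acts on ribosomes during recycling and reinitiation, held 15 peaks, 14 of them between 16.6 and 48.7% of the body.

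Within eIF3, a few genes carried most of the peaks. Eif3j1, which encodes the loosely attached j subunit, held 43 peaks over 25.1 kb of chromosome 2 (122028580 to 122053632), out of 118 in the Eif3 group, the most of any member. They ran from 3.49 to 86.6% of the body and covered 36.5% of its bases. Its short copy Eif3j2 held none; reads that match both copies could not be followed. The core of 8 subunits around which eIF3 is built (a, c, e, f, h, k, l and m) had peaks in 7 genes. Eif3k led these with 17 peaks in 10.5 kb (1.62 per kb), followed by Eif3l with 14 and Eif3c with 10. Eif3a and Eif3f held 6 each, Eif3e and Eif3h 5 each, and Eif3m none. The subunits b, g and i, which form a module of their own, held 10, 0 and 1 peaks, and Eif3d, whose product can bind the cap, held 1.

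The placing of peaks differed among the eIF3 genes. Eif3a had 5 of 6 peaks in the last 20% of the body, and Eif3e had all 5 between 14 and 22.1% of it. In Eif3l and Eif3f a lone peak lay at the start of the gene, followed by 6.54 kb and 4.22 kb without a peak. The peak of Eif3f began 7 bases before the annotated start and ended at base 231, and that of Eif3l ran from base 9 to base 76. Among members with a strand and a start in the promoter table, 4 of 29 genes with a peak had one on their own strand that reached into the window from 250 bases before a start to 50 after it (13.8%). Other protein-coding genes with a peak gave 8.45%. Eif4ebp2 was another, with a peak from 13 bases before its start in the promoter table to base 478 after it, and Eif5a was the last. In both of these genes the starts in the promoter table lie inside the body given by the gene table, so their peaks lie wholly within the gene. The sequences below show where 3 of these peaks begin relative to the start in the promoter table. They are from RefSeq (GRCm38.p6), run from 120 bases before the start to 30 after it on the strand of the gene, and have the bases inside the peak in capitals.
Eif3f, chr7:108934295-108934444, plus strand: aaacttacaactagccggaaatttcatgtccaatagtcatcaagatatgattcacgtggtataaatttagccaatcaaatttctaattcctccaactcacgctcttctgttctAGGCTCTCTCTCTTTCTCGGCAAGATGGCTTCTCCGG
Eif3l, chr15:79075103-79075252, plus strand: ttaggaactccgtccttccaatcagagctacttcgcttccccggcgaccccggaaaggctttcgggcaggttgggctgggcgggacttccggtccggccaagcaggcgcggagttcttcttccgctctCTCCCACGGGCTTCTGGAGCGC
Eif4ebp2, chr10:61452640-61452789, minus strand: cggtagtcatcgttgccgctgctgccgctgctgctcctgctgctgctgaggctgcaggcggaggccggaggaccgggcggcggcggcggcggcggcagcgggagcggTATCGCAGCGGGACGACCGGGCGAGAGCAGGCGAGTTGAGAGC
In these printed stretches 37 bases lie inside the peak for Eif3f, 22 for Eif3l and 43 for Eif4ebp2. The lower-case bases of Eif4ebp2 belong to the body of the gene in the gene table, and those before the start of Eif3f and Eif3l do not. These genes were chosen because their peaks reach into the window.

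Among genes with a peak, the eIF4 genes had the highest median density. The 12 genes with a peak had a median of 1.15 peaks per kb, with a range of 0.037 to 2.10. The medians were 0.50 for Eif2 genes, 0.42 for Eif3 genes and 0.38 for the remaining ones, and 0.18 for all protein-coding genes with a peak. Over the summed length of all genes in a group, with or without peaks, the densities were closer: 0.45 per kb for Eif4, 0.40 for Eif3, 0.38 for Eif2 and 0.37 for the remaining symbols. At least 1 peak per kb was reached by 12 members (23.5%), against 2.72% of all protein-coding genes. Of these 12, 7 were Eif4 genes and 5 were among the other 35 members. The median share of the body covered by peaks was 29.7% in Eif4 genes, 10.4% in Eif2 genes, 8.26% in Eif3 genes and 7.06% in the rest. The excess of the Eif4 group over the others was not tested.

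The genes for the helicase eIF4A and its cofactors were densely covered. Eif4h, whose product stimulates eIF4A, held 41 peaks over 19.5 kb of chromosome 5 (134619872 to 134639409). At 2.10 per kb it ranked 50th among the 2544 protein-coding genes with at least 5 peaks, and the peaks covered 60.8% of its body. Eif4b, the other cofactor, held 24 peaks (1.03 per kb), all in the first 68.8% of the body. Eif4a2, a helicase gene of 6.67 kb on chromosome 16 (23107468 to 23114132), held 14 peaks, also 2.10 per kb and rank 49. Its peaks lay a median of 59 bases apart and covered 61.1% of the body. Eif4a1, its close paralog on chromosome 11, held 7 peaks in 5.49 kb (1.28 per kb). Eif4a3, which serves in the exon junction complex and not in initiation, held 3 in 11.7 kb, all between 66.5 and 82.4% of the body, and the short gene Eif4a3l1 held none.

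Both large 4E-binding protein genes were covered from near the start, at higher density than the genes for the cap-binding proteins they restrain. Eif4ebp1 held 29 peaks over 15.3 kb of chromosome 8 (27260327 to 27275656), or 1.89 per kb. Eif4ebp2 held 39 over 24.3 kb of chromosome 10 (61428491 to 61452790), or 1.60 per kb. Peaks covered 40.2% and 38.2% of these bodies, and the short gene Eif4ebp3 had none. The cap-binding protein gene Eif4e held 8 peaks over 33.5 kb (0.24 per kb), and Eif4e2, whose product competes for the cap as a repressor, held 10 (0.38 per kb). Eif4e3 had none over 71.0 kb, and Eif4e1b had none over 4.47 kb.

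The 3 scaffold genes all held peaks but differed in density. Eif4g1, the main scaffold of the cap complex, held 20 peaks over 20.2 kb of chromosome 16 (0.99 per kb). Eif4g2, a relative that does not bind the cap protein, held 20 over 15.0 kb of chromosome 7 (1.33 per kb). Eif4g3 held 8 over 215 kb, or 0.037 per kb. Of these 8, 5 lay in the first 20% of the body, and 79.7 kb without a peak preceded the last. In Eif4g1 the order was turned: 9 of 20 peaks lay in the last 20%, and 4 in the first 20%.

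Among the remaining factors, the scanning factor gene Eif1a stood out. It held 24 peaks over 12.5 kb of chromosome 18 (46597704 to 46610225), or 1.92 per kb, while its X-linked paralog Eif1ax held 3 over 17.4 kb. How reads that match both genes were placed is not stated, so a difference between them is uncertain. Eif6, which keeps the large subunit from joining too early, held 10 in 7.09 kb (1.41 per kb). Eif5b, which promotes subunit joining, held 7 over 57.6 kb, all between 2.79 and 10.7% of the body. Eif5, which makes eIF2 hydrolyse its GTP, held 5, and Eif5a, which mainly helps elongation, held 1, while its paralog Eif5a2 held none. No peak fell in Eif1 or Eif1b, which take part in start codon selection, or in Eif1ad; each is under 5 kb.

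Peaks were unevenly spread over the members, and the spread over all genes was not computed for comparison. The 9 genes with 20 or more peaks (Eif3j1, Eif4h, Eif4ebp2, Eif2a, Eif4ebp1, Eif1a, Eif4b, Eif4g1 and Eif4g2) held 274 of the 496, or 55.2%. Eif4g1 and Eif4g2, with 20 peaks each, ranked 774th by count among the 4989 protein-coding genes with a peak. A member with a peak held a median of 10, against 5 for all protein-coding genes with a peak. Its median length was 20.2 kb, against 31.3 kb. Peaks in members had a median width of 208.5 bases, against 197 in other protein-coding genes, and a median gap of 178 bases to the next peak on the strand, against 248. Among genes of 10 to 20 kb with a peak, the median density was 1.03 peaks per kb in members and 0.30 in other protein-coding genes, and among those of 20 to 50 kb it was 0.43 and 0.18. The plot of density against length shows Eif4g3, the longest member, at the lowest density of any member with a peak.

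**Figure D2:**
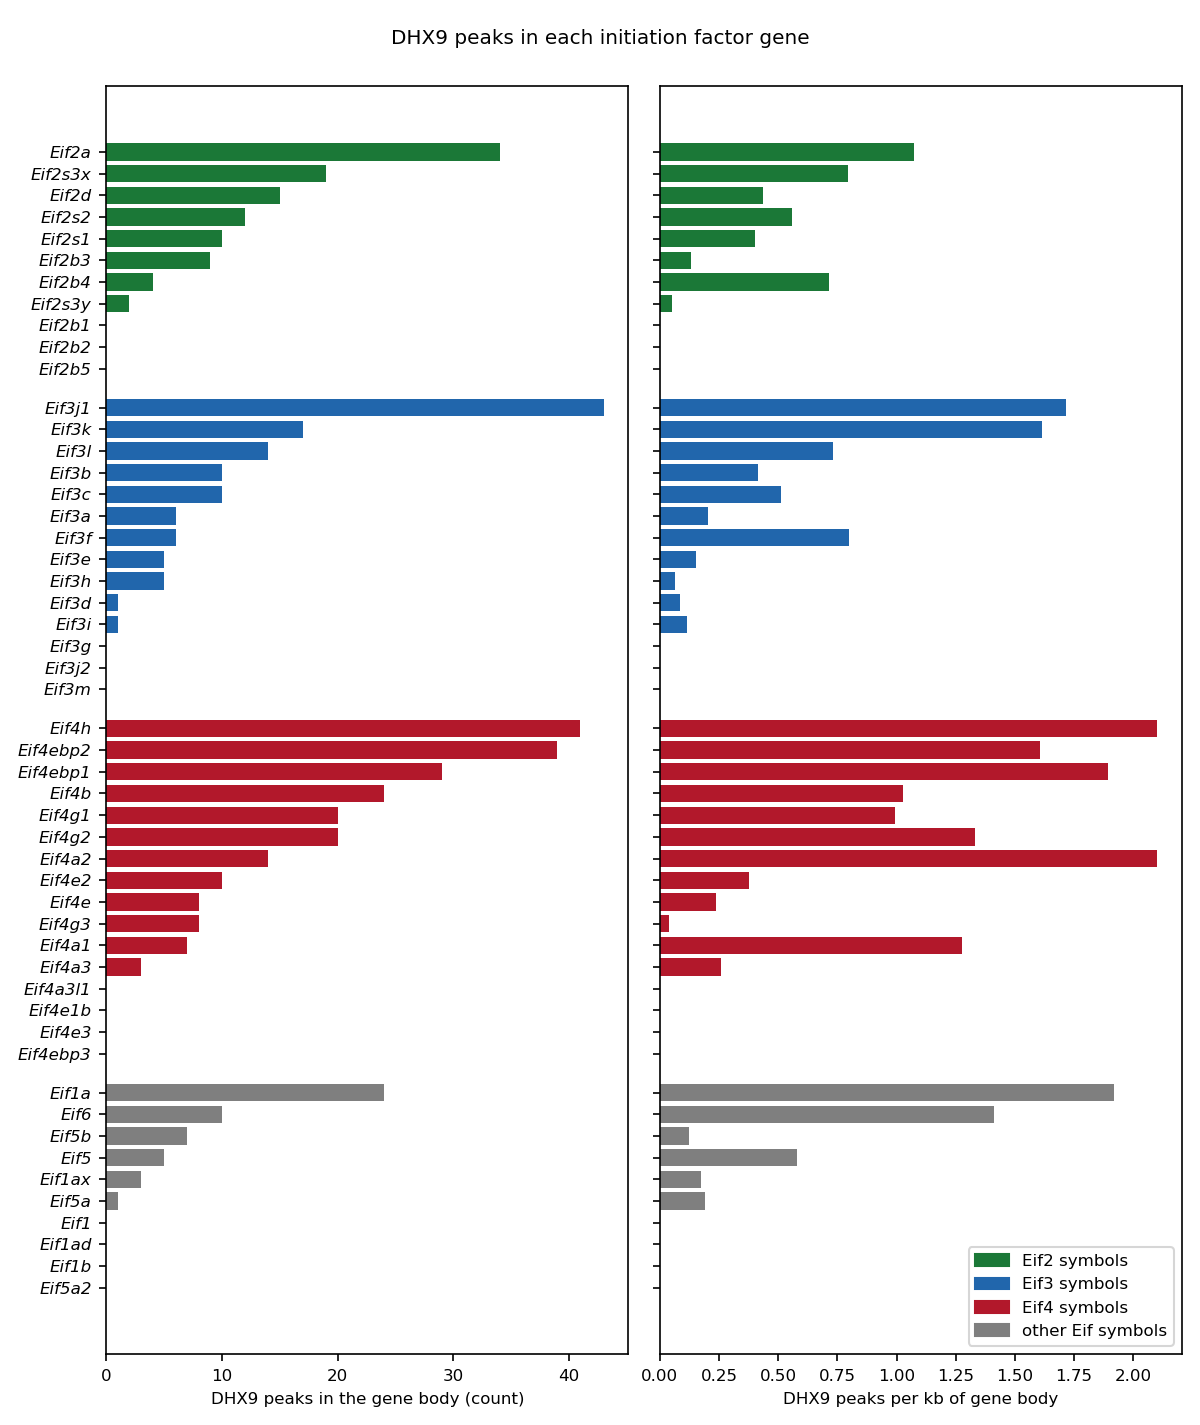
DHX9 peaks in each of the 51 initiation factor genes, as the number in the gene body (left axis, count) and per kb of gene body (right axis), with colours for the symbol groups. Eif3j1 holds the most peaks, 43, and Eif4h and Eif4a2 have the highest density, 2.10 per kb; 14 genes have no bar.

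**Figure D3:**
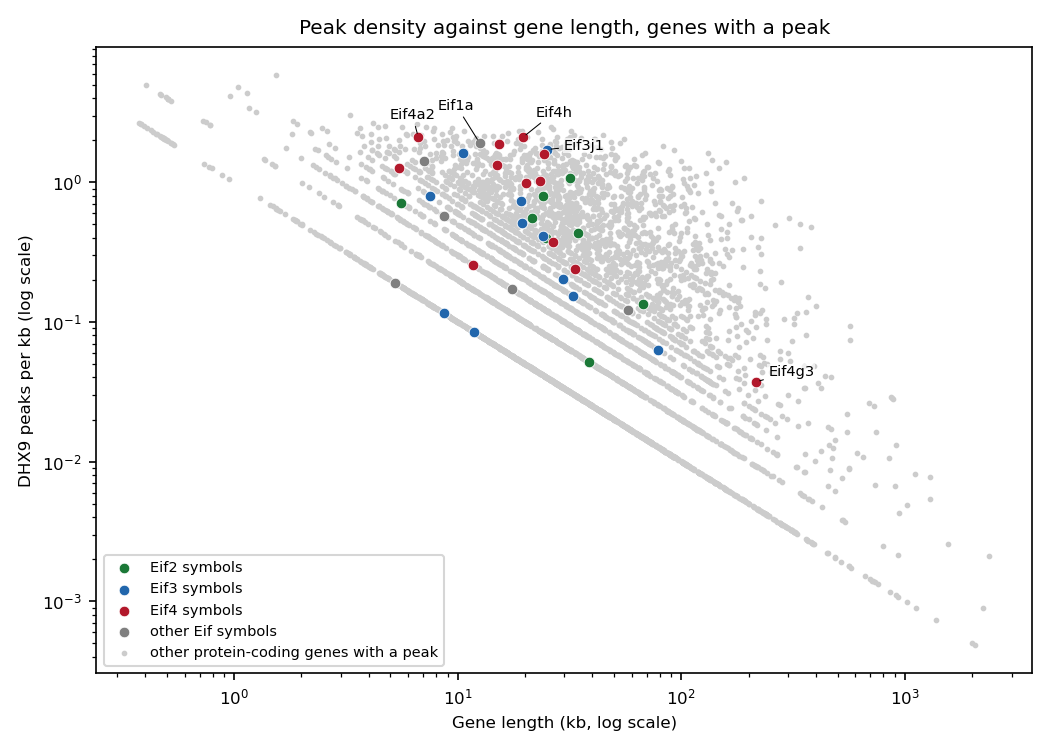
Peaks per kb (vertical log axis) against gene length in kb (horizontal log axis) for protein-coding genes with a peak, with initiation factor genes in colour and others in grey. The diagonal lines are genes with the same small number of peaks; 12 coloured points lie at 1 peak per kb or above.

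Along the gene, the first part of the body held more peaks than the last, in members and in other protein-coding genes. An even spread would place 20% of peaks in each window of 20%. In the 30 genes with at least 5 peaks, the first 20% held 113 of 481 peaks (23.5%) and the last 20% held 44 (9.15%). In other protein-coding genes with at least 5 peaks the values were 28.0% and 12.1%. The first 20% held more peaks than the last in 24 of the 30 genes, fewer in Eif2a, Eif3a and Eif4g1, and as many in Eif2s1, Eif3b and Eif5. Of 2513 other protein-coding genes with at least 5 peaks, it held more in 1477, fewer in 640 and as many in 396. The difference between members and other genes was not tested. No peak lay in the last 20% in 17 of the 30 members, a count not made for other genes. Eif2s1, Eif3a and Eif5 had none in the first 20%. In the groups, the first 20% held 16.2% of peaks in Eif2 genes, 21.6% in Eif3 genes, 25.9% in Eif4 genes and 32.6% in the rest. The last 20% held 8.08%, 8.62%, 11.8% and 0%, in the same order. The amount of RNA along each gene was not measured, so a fall in RNA towards the end and a fall in binding cannot be told apart.

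**Figure D4:**
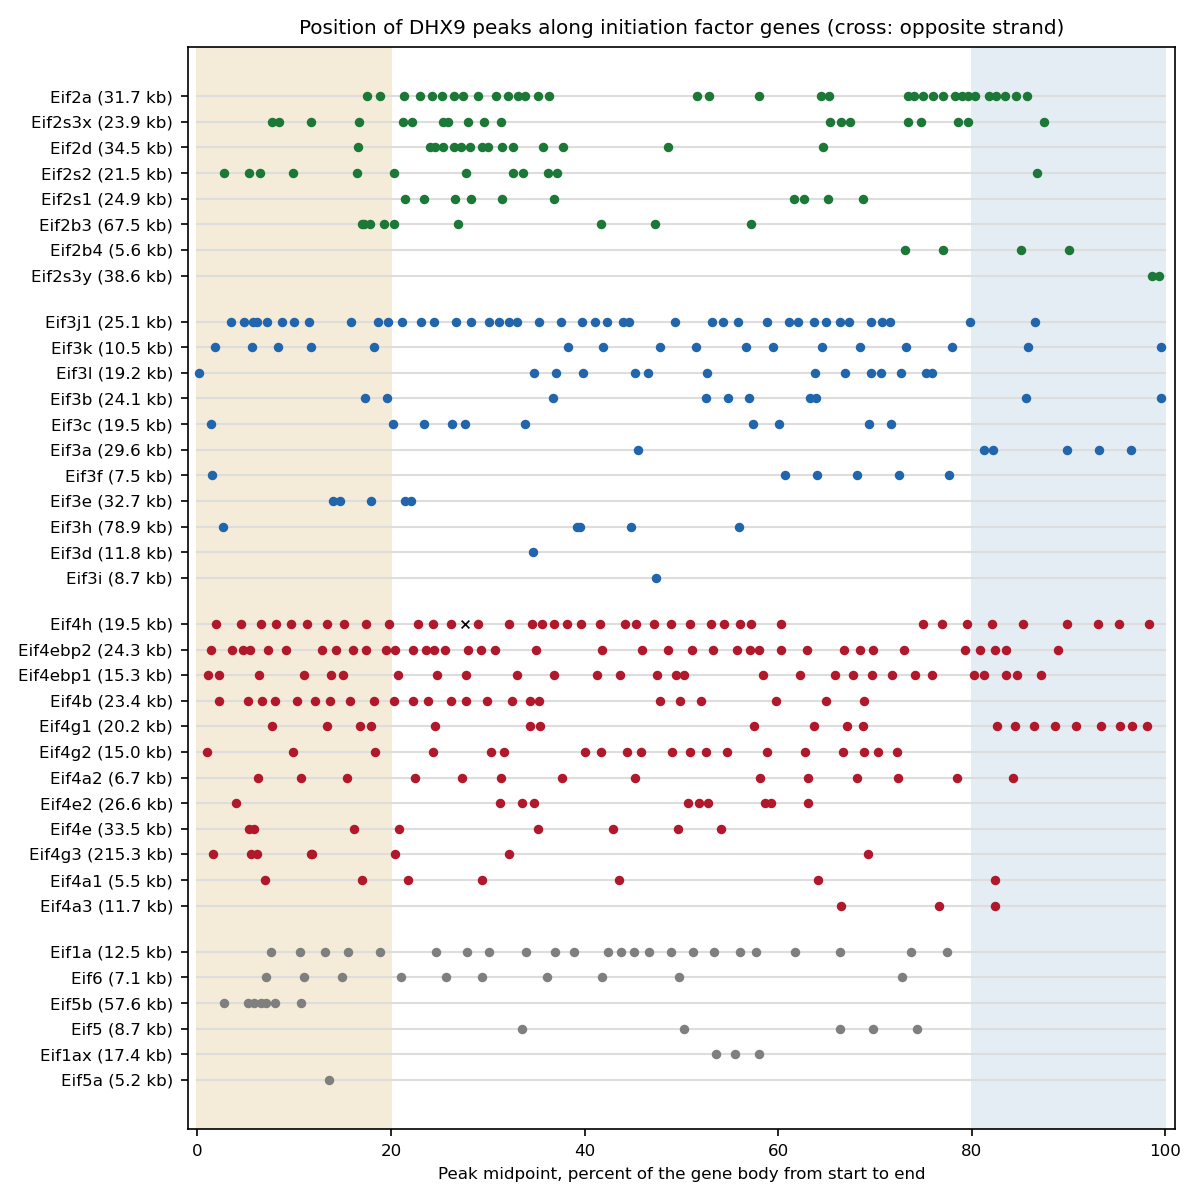
Midpoint of each peak as percent of the gene body from start to end (horizontal axis) in the 37 initiation factor genes with a peak (rows, with length in kb); shading marks the first and last 20%. Peaks of Eif5b and Eif3e lie in a narrow stretch near the start, those of Eif3a mostly near the end, and those of Eif4h along the whole gene.

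Peaks lay on the strand of the gene with a single exception. The promoter table gave a strand for 29 of the 37 members with a peak, and 392 of their 393 peaks were on that strand. The opposite strand held 0.254% (interval 0.045 to 1.43%), against 2.03% in other protein-coding genes with an annotated strand. Some genes share their body with another gene. For peaks in no other gene, the values were 0.26% in members (interval 0.046 to 1.46%) and 0.996% in other protein-coding genes, which lies inside that interval. Both intervals count each peak as independent, though many peaks share a gene. The exception was a peak of 105 bases in Eif4h, 5.40 kb from its start. For the other 8 members with a peak, the strand was read from the peaks, and all 103 peaks of these genes lay on 1 strand per gene.

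Peaks just outside the members lay mostly in neighbouring genes. The flanks of other genes were not counted, so no share over all genes can be set beside the values below. In the 5 kb before the start, 3 of 47 members with a known strand had peaks, 13 in all, each inside another gene. Of these, 7 lay in Senp3, which precedes Eif4a1 on the same strand. In the 5 kb after the end, 10 members had 24 peaks, of which 5 lay in no gene and 3 of these on the strand of the member, for Eif1, Eif3l and Eif2b5. Eif1 and Eif2b5 themselves held no peak. After Eif4h lay 8 peaks on its strand, all inside Lat2, a signalling adaptor gene of lymphoid and myeloid cells whose body lies 89 bases from that of Eif4h and whose own strand was not in the promoter table. These were all the peaks of Lat2, between 0.467 and 3.77 kb from the end of Eif4h, in a gene of 19.7 kb.

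Several initiation factor genes host small nucleolar RNAs (snoRNAs), which guide the modification of ribosomal and other RNAs and are cut from introns. In 6 members with peaks the gene table placed 12 snoRNA genes, and 9 of these overlapped a peak (75%, interval 46.8 to 91.1%). Of snoRNA genes in all protein-coding hosts with a peak, 49% did, which lies inside that interval. The interval counts each snoRNA gene as independent, though several share a host. All 9 overlapped genes also held the midpoint of the peak and were covered over their full length, on the strand of the host. Eif4a2, with 61.1% of its body covered by peaks, hosts 5 of the 12. Of these, 4 were overlapped: Snord2 at 1.49 kb from the start and the genes LOC115488690, LOC115488689 and LOC115488691, while Snora81 was not. Without these 4 peaks, Eif4a2 had 10 peaks and 1.5 per kb. Eif4a1, without its 2 peaks over snoRNA genes, had 5 peaks and 0.91 per kb, under 1 per kb.

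Some peaks traced the snoRNA gene closely. The peak over Snora28 in Eif5 was 134 bases wide, with 11 bases before and 1 base after a gene of 122 bases. In Eif4a1 the peak over LOC115487878 extended 3 bases before and 8 after a gene of 143 bases, and in Eif4g2 that over LOC115486847 extended 3 and 22 beyond 168 bases. These 3 were the ones with both ends within 25 bases of the gene, a limit chosen after the values were seen. The peak over Snord66 in Eif4g1 was wider, 380 bases for a gene of 58, and that over Gm25835 in Eif4a1 had 448 bases for 144. The remaining genes without a peak were LOC115487892 in Eif4a1 and Snora19 in Eif3a. None of the 4 microRNA genes inside members overlapped a peak (Mir1956 in Eif4e, Mir6399 in Eif4g3, Mir7038 in Eif3b and Mir3084-2 in Eif3a). In all protein-coding hosts with a peak, 15.9% of microRNA genes did, and 0 of 4 allows up to 75% (Wilson limit 49.0%).

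**Figure D5:**
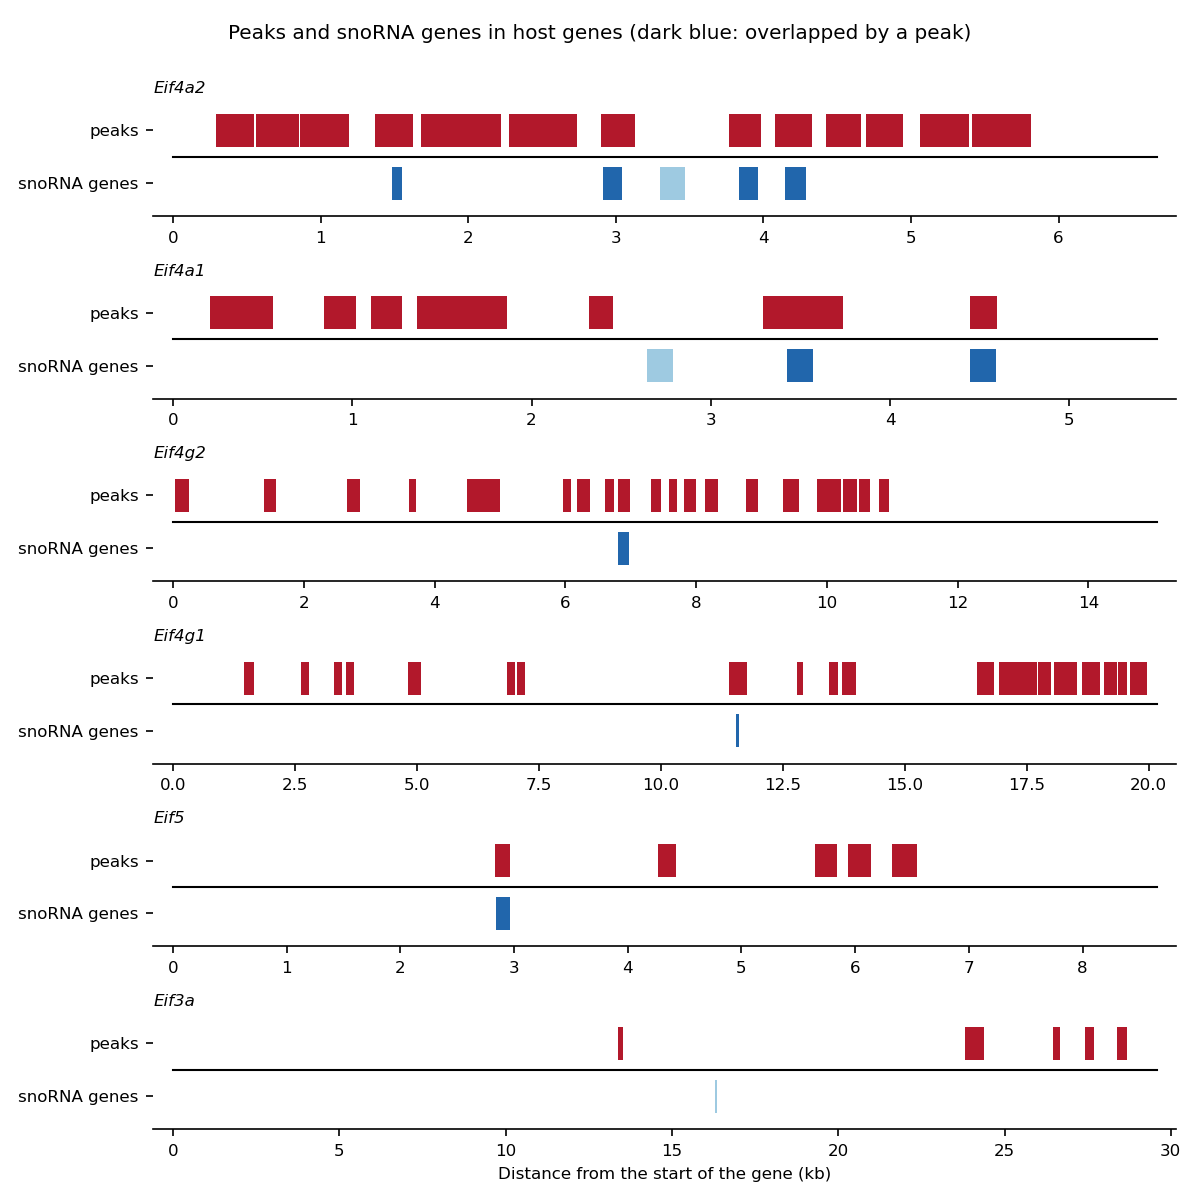
Peaks (red) and snoRNA genes (dark blue where a peak overlaps, light blue where none does) in the 6 host genes, against distance from the start of the gene in kb. In Eif4a2, 4 of 5 snoRNA genes lie under peaks, and the longest gap between peaks, 0.638 kb, holds Snora81.

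Other genes of the translation pathway were read in the same way. Over 7 lists of such genes, 28 of 44 held a peak (63.6%, interval 48.9 to 76.2%), against the 22.8% of all protein-coding genes. Of 8 elongation genes 7 did, led by Eef1g with 17 peaks, Eef1b2 with 9 in 3.66 kb and Eef1e1 with 8, and Eef1a2 had none. Of 6 termination and recycling genes 4 did: the release factor gene Etf1 held 52 (1.78 per kb), Gspt1 16 and Abce1 9, while the short genes Gspt2 and Pelo held none. Of the 5 genes for poly(A)-binding proteins and their partners, Paip2 held 38 (2.05 per kb), Pabpc1 16 and Paip1 2, and Paip2b held none.

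The genes that control initiation were uneven. Of the 4 eIF2 kinase genes, each over 30 kb long, 2 held a peak (50%, interval 15.0 to 85.0%). Among protein-coding genes outside the members, the share was 32.6% at 20 to 50 kb and 36.9% at 50 to 100 kb. The kinase genes held 3 peaks in all, 2 in Eif2ak3 and 1 in Eif2ak1. Downstream of them, Ppp1r15b, which directs dephosphorylation of eIF2, held 17 peaks in 8.63 kb (1.97 per kb), Trib3 held 6 and the transcription factor gene Atf4 held 4, while Ddit3 and Ppp1r15a held none. Among 9 genes that act on the cap complex, Larp1 held 71, Eif4enif1 33 and the kinase gene Rps6kb1 27, and Mknk1, Mknk2, Pdcd4 and Rps6kb2 held none. Of 7 other genes linked to initiation, Denr held 25, Abcf1 12 and Mcts1 11. The helicase genes Dhx29, Ddx3x and Ddx3y and the short gene Mcts2 held none.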

How the data were processed

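The authors deposited 1 peak list for the 4 samples (2 DHX9 and 2 IgG pulldowns), called with PEAKachu per the file's source column (settings and use of replicates: not given in the sources used here). The submitters' processing notes name Bowtie2 2.2.6 and the builds hg19 and mm10, of which mm10 was taken for this list. The values used are the first and last base and the strand of each peak, as deposited; none of the 59563 peaks has a score, so depth and precision per sample are unknown.

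Genes came from a RefSeq table (GRCm38.p6) of 49997 placed genes, with start, end and biotype but no exons. Gene strand came from the RefSeq promoter table, which gave it for 17492 of 21900 protein-coding genes and for 39 of the 51 members; otherwise the strand of most peaks was used. A peak was assigned to each gene that held its midpoint. Peaks within 50 bases were merged in 1 alternative. The assignment was tested on simulated peaks, where all 200 genes were recovered. Python 3.11.15, pandas 2.3.3 and statsmodels 0.14.6 were used.

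The members and lists were chosen with earlier results of these data known. Every member was to be named or counted. Those described in full were the 10 with the most peaks, the 6 densest with at least 3 peaks, hosts of small RNAs and paralogs, and up to 3 genes of each other list plus those with none; the Lat2 values, the ends of single genes and the 25-base limit were added after the values were seen. Exons, introns and repeats were not analysed here.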

Additional observations from a re-analysis of the deposited data

How the results depend on the processing

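The number of members with a peak was 37 by midpoint, by any overlap, with peaks in no other gene and with peaks on the strand of the gene, 35 with only the peaks no narrower than the median of 196 bases (17.1% of all protein-coding genes) and 33 with at least 3 peaks per gene; no group count moved by over 1.5 times. With the wider peaks only, which leaves out part of the list by construction, the median density of genes with a peak was 0.25 per kb for all members, 0.22 for Eif2, 0.19 for Eif3, 0.57 for Eif4 and 0.23 for the other symbols, so that the Eif4 genes had the highest median there too. Merging peaks within 50 bases gave 0.51, 0.40, 0.37, 0.96 and 0.38. The first part of the body exceeded the last by 14.3 percentage points in the 20% windows and by 21.4 points when each window held a share of 33.3% of the body, the larger window raising both shares. The share of snoRNA genes under a peak was 50% with the wider peaks, against 22.6% in other protein-coding hosts. Counts in single genes depended more on the setting: with the wider peaks 28 of 37 moved by over 1.5 times, such as Eif3c with 1 peak in place of 10, Eif4e with 1 in place of 8 and Eif4g2 with 6 in place of 20. On merging 4 moved, among them Eif1a with 15 in place of 24 and Eif4a2 with 9 in place of 14. A stricter score could not be tried, since the list has none, and neither could leaving out a pulldown. No paired analysis was possible because the list holds no values per replicate.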
